A study of Mus musculus with 3 samples.

Results

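Ion channels of the potassium, calcium, sodium, TRP and chloride families were compared between Pim1-/- and wild-type mouse cells cultured from the aorta. The members were all genes whose array name begins with Kcn, Cacna, Cacnb, Cacng, Scn and a number, Trpc, Trpm or Trpv and a number, Clcn, Hcn or Orai, together with Itpr1, Itpr2, the Ryr genes and the STIM genes. That rule took 164 of 19756 named genes and 283 of 41174 probes. The knockout cells came from aortae of female FVB/N Pim1-/- mice and the wild-type cells from aortae of female FVB/N mice, both 12 weeks old per the labels. Pim1 is a serine/threonine kinase. All cells grew in DMEM with 10% FBS on gelatine-coated dishes, and RNA was taken 24 h after seeding. Each of 3 dual-colour arrays carried knockout RNA in Cy5 and wild-type RNA in Cy3, and the labels call the arrays biological replicates.

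Ion channels set the membrane potential of vascular cells and the calcium that enters them. In endothelium, calcium that enters through TRP channels or is released from the endoplasmic reticulum opens calcium-activated potassium channels, the cell hyperpolarises, and the signal spreads to the smooth muscle below. STIM proteins sense the calcium of the endoplasmic reticulum and open the Orai channels of the plasma membrane when the store empties. Many voltage-gated channels are instead known from nerve and muscle, and the intracellular ClC proteins move chloride in exchange for protons in endosomes and lysosomes.

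Several facts of the arrays as a whole bear on every value below. No array had the dyes swapped, so a dye effect and the genotype cannot be told apart. Pim1 itself was 2.05-fold lower in knockout cells (log2 ratio -1.04 ± 0.10, SD, n = 3 arrays, limma adjusted p = 0.00301), and which part of the gene was deleted is not given in the sources used here. Although both genotypes are labelled female, Xist was at least 168-fold lower in knockout cells and the Y-linked Eif2s3y at least 28.1-fold higher, so a sex difference and the genotype cannot be told apart. Of 12 endothelial marker genes, 1 was above background on all 3 arrays in knockout cells and 3 in wild-type cells, while Cdh5, Erg, Pecam1 and Tie1 did not exceed it on any array in cells of either genotype. The labelled cell type is therefore not borne out by its defining markers. The summed intensity of 7 mesothelial markers was 10863 to 13899 in knockout cells and 79752 to 99067 in wild-type cells, with 4 called lower. Of 6 fibroblast markers 5 were called higher and 1 lower, with sums of 193511 to 218593 in knockout cells and 169982 to 204512 in wild-type cells. Sums of the 3 tested endothelial markers were 3160 to 3885 in knockout cells and 690 to 833 in wild-type cells, but only Eng was called (log2 ratio 2.51, higher). Esam at -0.17 and Kdr at -0.23 were not called, and the median of the 3 was -0.17. The part of these cell type genes in the channel results was not tested, and fewer cells of a type cannot be told apart from less RNA per cell.

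Of the 164 channel genes, 69 (42.1%) had a probe well above background in 1 dye on at least 2 arrays and were tested, against 13473 of all named genes (68.2%). A further 10 were above background on some array without reaching that rule, and 85 were above it on no array. Each gene was read from its brightest tested probe, and 44 of the 69 genes were above background in both dyes on all 3 arrays. At a limma adjusted p under 0.05, 17 of the 69 were called (24.6%), against 20.1% of all tested genes. In knockout cells 11 channel genes were lower (15.9%, all genes 11.4%) and 6 were higher (8.7%, all genes 8.65%). The share called was thus near that of all genes. As processed here, 7 called channel genes were at least 2-fold lower and 0 were higher by that much, against 4.43% and 2.26% of all tested genes. The greatest called rise was 1.60-fold. These counts depended on the processing. Kcnt2 rose to a log2 ratio of 1.41 at a normexp offset of 0 and 3.51 in the scanner software's ratio. Kcnip3 and Kcnk5 reached 1.47 and 1.45 in the software's ratio. Cacna2d3 fell to -1.82 and -3.52 in these 2 settings. With the mean of a gene's probes Trpc1 stood at only -0.62, and the smallest fall of Kcnj4 over the alternatives was -0.59. The median log2 ratio was -0.10 over the 69 channel genes and -0.02 over all tested genes. It moved with the filter: 12 of the 69 were above background in knockout cells on no array and 2 in wild-type cells on no array, and the median was -0.049 with both dyes required above background and -0.0077 with no filter. Among the 44 genes measured in both dyes on all arrays, 13 were called, 8 lower and 5 higher. With that filter on every gene, 19.5% of all tested genes were called, 1251 lower and 1080 higher. The share called among the 44 thus lay farther above that of all genes than among the 69. This gap was not tested.

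All 17 called genes had 1 sign on the 3 arrays. The calls of 6 genes did not depend on any 1 array: Trpv4, Kcnj8, Kcnn4, Trpc1, Kcnab1 and Kcnj4 stayed past the threshold whichever array was left out. The other 11 were lost without array 2 and also without array 3, where their adjusted p lay between 0.0646 and 0.243. Centring each array on its median ended 7 of the calls, those of Clcn2, Clcn4-2, Clcn6, Kcnk5, Kcnn1, Kcnt2 and Trpc2. The counts were 11 higher and 15 lower without array 1, 0 higher and 6 lower without array 2, and 0 higher and 6 lower without array 3. Of all tested genes, 41.6%, 4.89% and 4.65% were called in these settings, in that order, against 20.1% with 3 arrays. Across the channel genes the log2 ratios of arrays 2 and 3 correlated at r = 0.92, those of arrays 1 and 2 at 0.847 and those of arrays 1 and 3 at 0.832, which is a description across genes and not across samples.

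**Figure D1:**
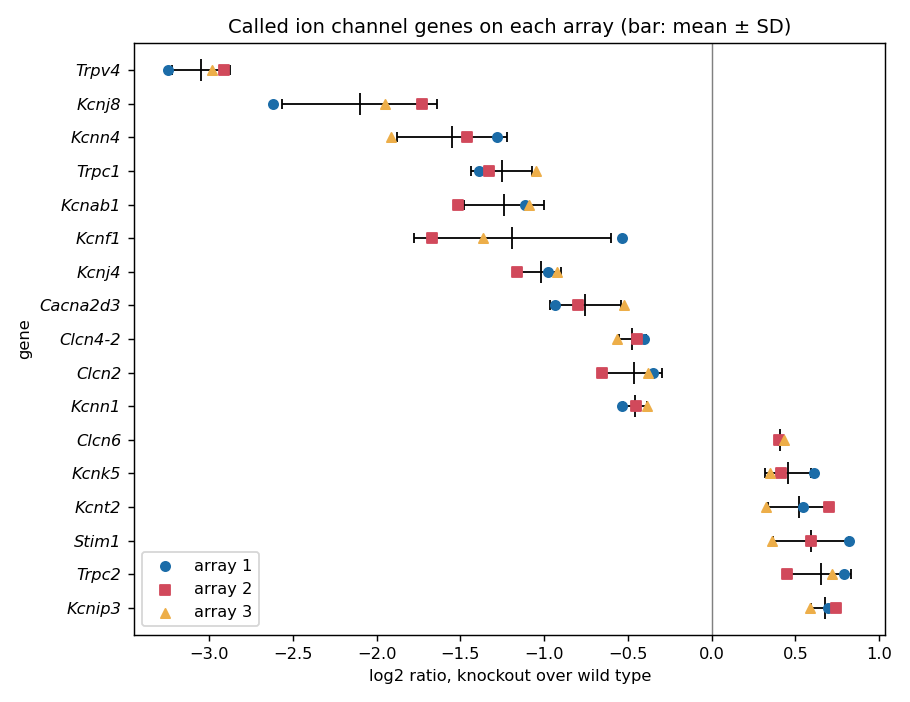
Log2 ratio of knockout over wild type (x axis) on each of the 3 arrays for the 17 called channel genes, with the mean and SD as a bar. The 11 genes called lower lie left of 0 on every array, with Trpv4 farthest at -3.05, and the 6 called higher lie right of 0, with Kcnip3 farthest at 0.67.

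The sequences that carry these measurements are the array's probes, of 60 bases each, and the first 30 bases are shown for the 7 genes called at least 2-fold lower. For Kcnj8, Trpc1 and Kcnj4 the other tested probes are added, because the probes of those genes gave ratios of different size. Positions are those of the array files (mm8). All lie on the minus strand except those of Kcnn4 and Kcnab1, and the position the files give for Kcnn4 is longer than its probe.
Trpv4 at chr5:114883198-114883257: gacctgccacagatctgacctgctgcagcc
Kcnj8 at chr6:142522706-142522765: actgtgtcctgatgactgagagacaatccg
Kcnj8 at chr6:142522189-142522248: cacgggtcatcatgaatatgttcaaatcta
Kcnn4 at chr7:24092925-24093523: gccacatagctccacatgaactcacagaag
Trpc1 at chr9:95514886-95514945: cgctgctagagatgtaaagcactgtttatt
Trpc1 at chr9:95519543-95519602: gggaatgttcctccttgttctgttttcctt
Trpc1 at chr9:95558407-95558466: ccccttttaaatgtcggtattttttattag
Kcnab1 at chr3:65466011-65466070: atgatagagatgagctaactttccatctat
Kcnf1 at chr12:17198201-17198260: atactcagagatccaaagtatctttttgct
Kcnj4 at chr15:79311238-79311296: gcatgactgtggtctgtgctcttgattctc
Kcnj4 at chr15:79312215-79312274: cttggtgtcacccatcatcatagtgcatga

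Among the calcium entry channels the change of greatest size was that of Trpv4, a calcium-permeable TRP channel opened by mechanical and osmotic stimuli and by lipid messengers. Its normalised log2 intensity was 8.57, 8.69 and 8.67 in knockout cells and 11.82, 11.60 and 11.65 in wild-type cells on arrays 1, 2 and 3. The groups did not overlap, and within each group the arrays lay close together. Here and for the called genes below, absence of overlap follows largely from picking genes by their difference on these arrays. The share of all genes without overlap is not given here. Trpv4 was 8.26-fold lower in knockout cells (log2 ratio -3.05 ± 0.17, SD, n = 3; limma adjusted p = 0.000275), and over the processing alternatives its log2 ratio lay between -3.26 and -2.93. Trpv2, the other tested member of the TRPV family, did not pass the test (-0.14 ± 0.10, adjusted p = 0.382), and its knockout signal was above background on no array. The remaining 3 of 5 TRPV genes were above background on no array.

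Of the 7 TRPC genes only Trpc1 and Trpc2 were tested, and the other 5, with Trpc4 and Trpc6 among them, were above background on no array. Trpc1, a subunit of receptor- and store-operated cation channels, read 6.50, 6.55 and 6.58 in knockout cells (above background on 2 arrays) and 7.89, 7.88 and 7.62 in wild-type cells in log2 intensity. The groups did not overlap, but the knockout values lay near the background. Trpc1 was lower in knockout cells (log2 ratio -1.25 ± 0.18, SD, n = 3; limma adjusted p = 0.00243). Its other 2 tested probes gave -0.36 ± 0.08 (adjusted p = 0.0568) and -0.24 ± 0.11 (adjusted p = 0.158), both with knockout signals above background on no array. The 3 probes thus shared a sign, and with their mean as the gene's value the log2 ratio was -0.62. Trpc2, which in rodents serves pheromone detection in the vomeronasal organ, was higher in knockout cells, with log2 ratios of 0.79, 0.45 and 0.72 (mean 0.65 ± 0.18, adjusted p = 0.0174). Its other tested probes gave 0.10, 0.33 and 0.35, none called. RefSeq lists a readthrough gene, Xntrpc, across Xndc1 and Trpc2, and signals of these transcripts cannot be told apart with certainty.

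The store-operated pair differed in direction. Stim1, the main endoplasmic reticulum calcium sensor of store-operated entry, read 12.32, 11.95 and 11.81 in knockout cells and 11.50, 11.36 and 11.45 in wild-type cells in log2 intensity. All 3 knockout values lay above all wild-type values. Stim1 was 1.51-fold higher in knockout cells (log2 ratio 0.59 ± 0.23, SD, n = 3; limma adjusted p = 0.029), and the adjusted p was 0.171 without array 2 and 0.101 without array 3. Stim2, its paralogue with a higher sensitivity to small falls of store calcium, had log2 ratios of -0.29, -0.81 and -0.26. Stim2 did not pass the test (-0.45 ± 0.31, limma adjusted p = 0.087). Without array 1 its adjusted p was 0.00113, in a setting where 41.6% of all tested genes were called, against 20.1% with 3 arrays. No probe matched an Orai name, so the plasma membrane partner is not analysed here.

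Of the 4 tested release channels of the endoplasmic reticulum, 0 were called by limma, and 1 had an unadjusted p under 0.05. Itpr1, an inositol trisphosphate receptor, had log2 ratios of 0.35, 0.31 and 0.61 (mean 0.42 ± 0.17, adjusted p = 0.0512), and its second probe gave 0.36 ± 0.15. Itpr2 had -0.27, 0.62 and 0.88 (mean 0.41 ± 0.60, adjusted p = 0.287), so that array 1 lay opposite to the other arrays. Without array 1 both passed, Itpr1 at 0.46 (adjusted p = 0.00249) and Itpr2 at 0.75 (adjusted p = 7.33e-06). In that setting 41.6% of all tested genes were called, against 20.1% with 3 arrays, so passing sets neither gene apart. The ryanodine receptors Ryr1 and Ryr3 gave 0.14 ± 0.06 and -0.03 ± 0.15, and Ryr2 was above background on no array. Of 8 TRPM genes, the calcium-activated cation channel Trpm4 gave -0.11 ± 0.35 and the magnesium-permeable channel kinase Trpm7 gave -0.12 ± 0.32, and neither was called.

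**Figure D2:**
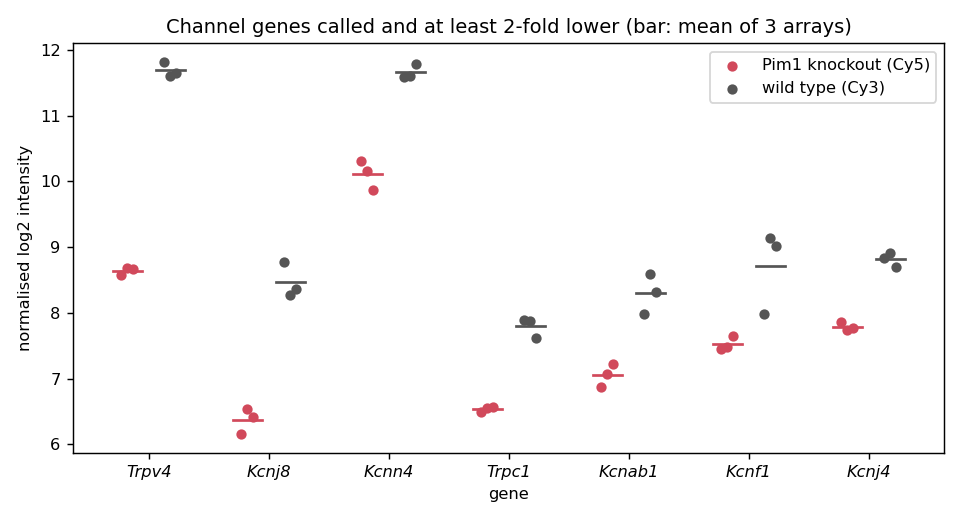
Normalised log2 intensity (y axis) of the 7 channel genes called at least 2-fold lower, with knockout points (Cy5) left of wild-type points (Cy3), 1 point per array and the mean as a bar. The groups do not overlap for any of the 7 genes, and the smallest gap, for Kcnf1, rests on the wild-type value of 7.98 on array 1. The genes were picked by their difference on these same arrays, so the absence of overlap is no separate support.

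The calcium-activated potassium channels act downstream of calcium entry. Kcnn4 encodes the intermediate-conductance channel KCa3.1, which carries endothelial hyperpolarisation and also serves proliferating fibroblasts and leukocytes. Its log2 intensity was 10.31, 10.15 and 9.88 in knockout cells and 11.59, 11.61 and 11.79 in wild-type cells, with no overlap. Kcnn4 was 2.93-fold lower in knockout cells (log2 ratio -1.55 ± 0.33, SD, n = 3; limma adjusted p = 0.00302). Kcnn1, a small-conductance relative, was lower by less (log2 ratios -0.53, -0.45 and -0.39, adjusted p = 0.0291). Kcnt2, a sodium-activated potassium channel, was at least 1.44-fold higher in knockout cells, because its wild-type signal was above background on no array (adjusted p = 0.0328). All 3 tested members of this family of 8 were called, 2 lower and 1 higher, against 20.1% of all tested genes. Kcnt2 entered the test through its knockout signal alone, so the 3 of 3 rests partly on the filter. The calls of Kcnn1 and Kcnt2 were lost with median centring, without array 2 and without array 3. The endothelial small-conductance channel Kcnn3 and the large-conductance channel Kcnma1 of smooth muscle were above background on no array.

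Among the inward rectifiers, which hold the resting potential near that of potassium, 2 of 6 tested genes were called, both lower. Kcnj8 encodes Kir6.1, the pore of the vascular ATP-sensitive potassium channel. It read 6.16, 6.54 and 6.41 in knockout cells (above background on 1 array) and 8.78, 8.27 and 8.36 in wild-type cells in log2 intensity. The knockout signal was close to the background while the wild-type signal was above it on every array, without overlap. The measured difference was 4.29-fold (log2 ratio -2.10 ± 0.46, SD, n = 3; limma adjusted p = 0.00251). Its size differed between processing settings, with a log2 ratio of -3.16 at a normexp offset of 0 and -4.61 in the scanner software's ratio, which differs in both background correction and dye normalisation. The second Kcnj8 probe was also called, at -0.41 ± 0.06 (adjusted p = 0.0375), with a knockout signal above background on no array. With the mean of its 2 probes Kcnj8 stood at -1.26.

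Kcnj4, a strong inward rectifier (Kir2.3), read 7.86, 7.74 and 7.77 in knockout cells and 8.84, 8.91 and 8.70 in wild-type cells. No values overlapped, and it was 2.03-fold lower in knockout cells (log2 ratio -1.02 ± 0.13, limma adjusted p = 0.00343). Its second probe gave -0.15 ± 0.09 (adjusted p = 0.343). The G-protein-gated rectifier Kcnj5 was not called, at 0.42 ± 0.23 (adjusted p = 0.0725). Its wild-type signal was above background on no array, which gives a rise of at least 1.30-fold. It was called without background subtraction, at an offset of 0, by the software's ratio, with an intensity trend and without array 1. The endothelial strong rectifier Kcnj2 was above background on no array.

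The voltage-gated potassium pores were the largest family, with 36 genes, of which 29 were above background on no array and 5 were tested. Only Kcnf1, a subunit that is electrically silent by itself and modifies other pores, was called. Its log2 intensity was 7.45, 7.48 and 7.65 in knockout cells and 7.98, 9.15 and 9.01 in wild-type cells. The wild-type value of array 1 lay close to the knockout values, so the log2 ratios were -0.53, -1.67 and -1.36 (mean -1.19 ± 0.59, limma adjusted p = 0.0237). The call was lost without array 2 (adjusted p = 0.134) and without array 3 (adjusted p = 0.154). The delayed rectifier Kcna5 of vascular smooth muscle was above background on no array.

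Of 8 tested potassium channel accessory subunits 1 was lower and 1 higher. Kcnab1, a cytoplasmic beta subunit that speeds inactivation of Kv1 channels, read 6.87, 7.08 and 7.22 in knockout cells and 7.99, 8.59 and 8.32 in wild-type cells. The groups did not overlap, and Kcnab1 was 2.36-fold lower in knockout cells (log2 ratio -1.24 ± 0.24, limma adjusted p = 0.00351). Kcnip3, a calcium-binding protein also known as the transcriptional repressor DREAM, was 1.60-fold higher with log2 ratios of 0.69, 0.74 and 0.59 (adjusted p = 0.0102). Its second probe gave 0.05 ± 0.20 (adjusted p = 0.819), and the call was lost without array 2 (adjusted p = 0.105) and without array 3 (adjusted p = 0.0869). The tandem-pore channels, which give background potassium conductance, had 1 call in 6 tested genes. Kcnk5 was higher in knockout cells with log2 ratios of 0.61, 0.42 and 0.35 (adjusted p = 0.0367), while the mechanosensitive Kcnk2 gave -0.16 ± 0.07 and Kcnk6 gave 0.06 ± 0.38.

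**Figure D3:**
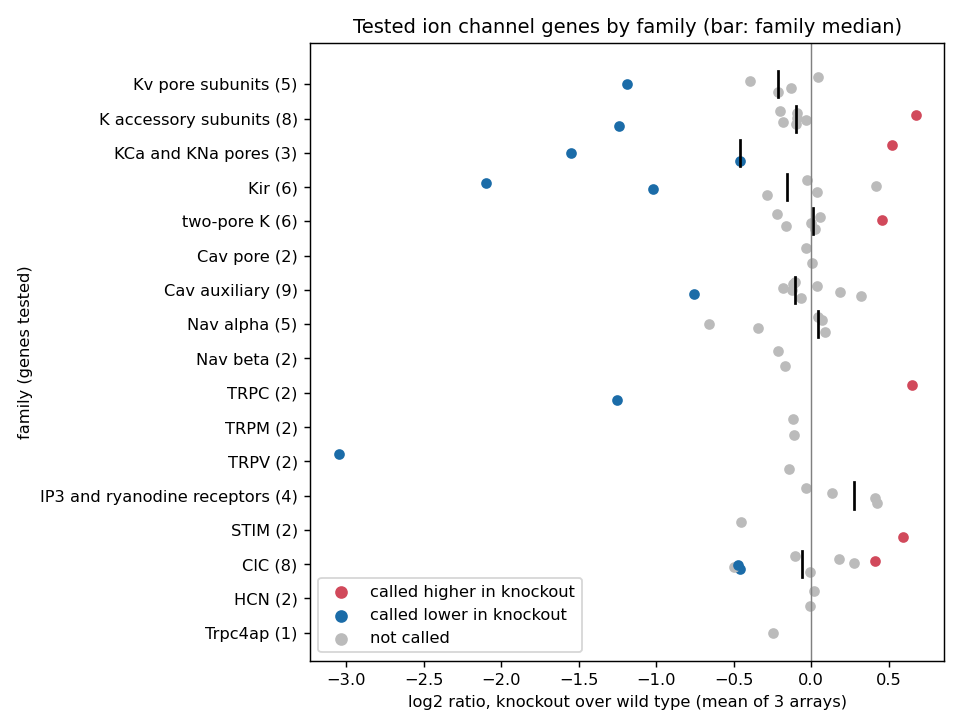
Mean log2 ratio of knockout over wild type (x axis) for each of the 69 tested channel genes by family (y axis, number tested in brackets), with a bar at the median of families with 3 or more tested genes. The genes past -1 belong to the TRPV, TRPC, inward rectifier, calcium-activated, voltage-gated and accessory potassium families, and no pore of the voltage-gated calcium or sodium channels is called.

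The voltage-gated calcium and sodium channels, which carry action potentials in nerve and muscle, gave 1 call, in an auxiliary subunit. Of 9 calcium pores 5 were above background on no array, and of the 2 tested, 0 were called by limma and 0 had an unadjusted p under 0.05. The T-type pore Cacna1g had log2 ratios of -0.80, 0.14 and 0.56, and Cacna1a averaged 0.00 ± 0.08. No probe matched the name Cacna1c, the L-type pore, which is not analysed here. Of 9 tested auxiliary subunits 1 was called: Cacna2d3, an alpha-2-delta subunit that promotes surface delivery of the pore, was at least 1.68-fold lower in knockout cells, where it was above background on no array (log2 ratio -0.75 ± 0.21, adjusted p = 0.0136). Its relatives Cacna2d1 and Cacna2d2 gave -0.06 ± 0.17 and 0.32 ± 0.29, neither called. Of 5 tested sodium channel alpha subunits 0 were called by limma and 2 had an unadjusted p under 0.05, and the largest difference was that of Scn2a1, listed as Scn2a in RefSeq (-0.66 ± 0.44, adjusted p = 0.06). The beta subunit Scn3b and the pacemaker channels Hcn2 and Hcn4 were not called.

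In the ClC family 8 of 9 genes were tested, and 6 were above background in both dyes on all arrays. Clcn4-2, listed as Clcn4 in RefSeq and an endosomal exchanger, was lower in knockout cells with log2 ratios of -0.41, -0.45 and -0.57 (adjusted p = 0.0275). Clcn2, a plasma membrane chloride channel, was also lower (-0.35, -0.66 and -0.38, adjusted p = 0.0412). Clcn6, a late endosomal exchanger, was higher with 0.40, 0.40 and 0.43 (adjusted p = 0.0352). These 3 differences were all below 1.5-fold and were lost without array 2, with adjusted p of 0.169, 0.243 and 0.203, and without array 3, with 0.199, 0.184 and 0.218, in the order given. The endosomal Clcn3 had -0.49 ± 0.26 and missed the threshold (adjusted p = 0.0537), and the lysosomal Clcn7 had 0.18 ± 0.13. Clcn5 gave 0.28 ± 0.04 (adjusted p = 0.098) by its brightest probe and 0.50 ± 0.09 (adjusted p = 0.0244) by its other one. Clcn5 was the 1 tested member on the X chromosome, and Clcn7 the 1 tested member on chromosome 17, where Pim1 lies.

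**Figure D4:**
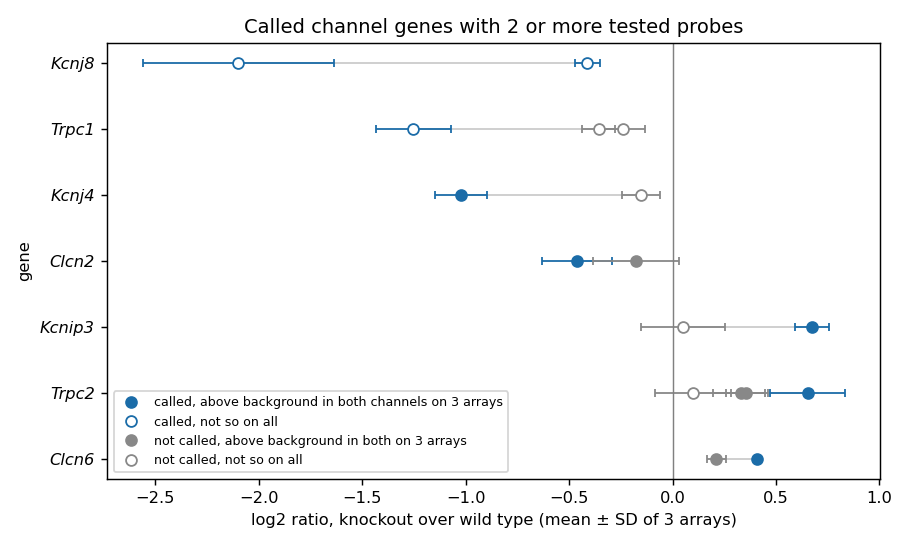
Mean log2 ratio and SD over 3 arrays (x axis) of every tested probe for the 7 called channel genes with 2 or more tested probes; filled points were above background in both dyes on all arrays. In Kcnj8 both probes are called, while in the other 6 genes 1 probe is called and its partners lie nearer 0.

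Agreement between probes of 1 gene limits how firmly the smaller calls can be read. Of 23 channel genes with at least 2 tested probes, 17 had probes of 1 sign and 6 had both signs, with Cacna2d1, Cacna2d2, Cacna1g, Scn2a1 and Ryr1 among them. Of the 17 called genes 10, with Trpv4 and Kcnn4 among them, rest on 1 tested probe.

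The genes that act with these channels were counted from a list of 105 calcium-handling, calmodulin-kinase, phospholipase, transporter and regulator genes. Of these 94 were on the array and 84 were tested, with 29 lower (34.5%) and 8 higher (9.52%) in knockout cells, against 11.4% and 8.65% of all tested genes, and a median log2 ratio of -0.19. The list was chosen with earlier results of these data known. These shares therefore cannot be told apart from the choice of names and are a description only. Rcan2, a regulator of the phosphatase calcineurin, was lower at -3.12 ± 0.59 (limma adjusted p = 0.00134). The calcium-activated chloride channel Ano1 was lower at -2.87 ± 0.24 (adjusted p = 0.000355), and the junctional membrane protein Jph2 at -2.50 ± 0.16 (adjusted p = 0.000347). The calcineurin target Nfatc1 was lower at -1.63 ± 0.42 (adjusted p = 0.00429), and so was the potassium-chloride cotransporter Slc12a7 (-1.69 ± 0.20, adjusted p = 0.00109). The scaffold Akap5, which tethers kinases and calcineurin near channels, was lower at -2.07 ± 0.30 (adjusted p = 0.00104), and the kinase Camk1d at -1.78 ± 0.24 (adjusted p = 0.00117), both above background in knockout cells on 2 arrays. Phospholipase Plce1 was at least 2.57-fold lower, being above background in knockout cells on no array. In the other direction the ATP-gated cation channel P2rx7 was higher at 1.76 ± 0.30 (adjusted p = 0.00172), and Jph1, the paralogue of Jph2, at 1.34 ± 0.17 (adjusted p = 0.00188). The calcineurin subunit Ppp3cc was higher at 0.78 ± 0.19, and so were the phospholipase Plcb3, the reticulum proteins Asph and Calr and the kinase Camkk2, at 0.40 to 0.59. These 5 calls were lost without array 2 and without array 3.

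**Figure D5:**
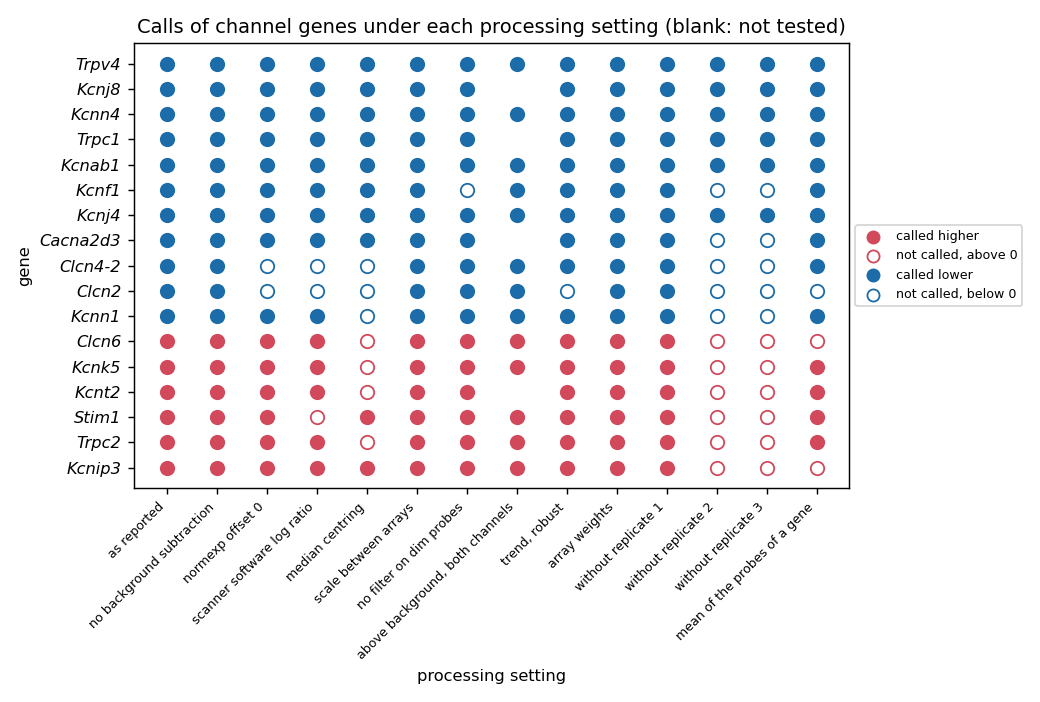
Calls of the 17 channel genes (y axis) under each processing setting (x axis); filled points passed an adjusted p under 0.05, open points did not, and blanks were not tested. Trpv4, Kcnj8, Kcnn4, Trpc1, Kcnab1 and Kcnj4 are filled wherever they were tested, and none of the 17 changes sign.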

How the data were processed

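The deposited files held, per spot, mean intensity and median local background intensity of both dyes, written by Agilent Feature Extraction (9.5.3.1 in the submitters' processing notes and, likewise, per the file headers), with that software's background-subtracted, dye-normalised log10 ratio of Cy5 over Cy3. The deposited value table repeated that log10 ratio (largest difference 0). All 3 arrays lay on 1 slide with 1 scan date, so neither could be a batch. No total count exists for arrays, and their number limits the precision.

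Intensities were corrected with normexp (offset 50) and log2 ratios normalised by loess within arrays, with 1639 control spots and flagged spots (121 to 140 per array) at weight 0. No spot was saturated. Spots of a probe were averaged, which gave 41174 probes. A probe was tested when well above background in 1 dye on at least 2 arrays (25090 probes). Probes against the strand of their gene (253, of which 2 for channel genes) were left out of gene values. Gene symbols were those of the files, updated through RefSeq accessions (GRCm38.p6, names and chromosome only): 162 of 164 channel genes had the same symbol. The mean log2 ratio was tested against 0 with lmFit and eBayes of limma (version 3.58.1, run in R 4.3.3; 3.44 prior degrees of freedom). P-values were adjusted by Benjamini-Hochberg over every tested probe, and 4289 probes were called at an adjusted p under 0.05. Errors given with ± are SDs over 3 arrays. The p-values of limma do not measure that spread alone, because eBayes combines each probe's variance between arrays with a prior drawn from all tested probes. A gene's p-value therefore need not follow its printed SD. Whether the wild-type RNA was 1 pool is not given in the sources used here. The offset draws ratios of dim probes towards 0. For a gene above background on no array in 1 dye, a bound is given: the mean of the brighter dye against, per array, the higher of the dimmer dye's own value and its lowest signal well above background, from dye intensities after loess and Aquantile normalisation without balanced swaps. A level of 1 probe was set against no other probe's. On simulated data of 25090 probes, 50 were changed at each of 1.5-, 2-, 4- and 8-fold, and 14, 38, 47 and 50 were recovered. There were 3 false of 152 calls, and an 8-fold change measured 5.5-fold in the median. Far fewer probes changed than the 4289 called here, and noise was drawn independently for each probe and array. The simulated rates therefore need not hold for these arrays.

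Named were all called channel genes, the brightest tested gene of each family, 30 channels known from vascular physiology (26 on the array, 16 tested, 4 called), genes with probes of both signs, and up to 8 called partner genes in each direction; some of the genes these rules took are not reported here. The channel genes, the partner and marker lists and these rules were chosen with earlier results of these data known. Alternatives covered background correction, centring, scaling, the filter on dim probes, the variance model, array weights, each array left out and the mean of a gene's probes.

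Of further marker lists, smooth muscle had 1 of 6 genes higher and 1 lower, macrophage and leukocyte 1 of 3 tested lower, neuron and glia 1 of 4 tested higher, and cardiac and skeletal muscle 0 of 4 tested called by limma.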

Additional observations from a re-analysis of the deposited data

How the results depend on the processing

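None of the 17 called channel genes changed sign under any of the 13 alternatives, and 6 kept their call in each one that tested them (Kcnj8 and Trpc1 were not tested where both dyes had to be above background on all arrays). Of the uncalled channel genes named, 11 changed sign under some alternative. Channel genes called higher and lower numbered 0 to 11 and 6 to 15 with 1 array left out, against 6 and 11. All genes called higher numbered 178 to 2796 and lower 448 to 2800 with 1 array left out, against 1165 and 1539. Median centring gave 2 channel genes higher and, over all genes, 1033 higher and 827 lower, so that 55.5% of all calls were higher, against 43.1%. Beside median centring and the arrays left out, the call of Clcn2 was lost at an offset of 0 (adjusted p = 0.0561), by the software ratio (0.104), with an intensity trend (0.0525) and with the mean of its probes (0.0904). That of Clcn4-2 was lost at an offset of 0 (0.0533) and by the software ratio (0.0847), and that of Clcn6 with the mean of its probes (0.0654). The calls of Stim1 (software ratio, 0.0584), Kcnf1 (no filter, 0.0535) and Kcnip3 (mean of its probes, 0.0652) were lost under 1 such alternative each. Array weights gave 2184 higher and 2333 lower. The scanner software's ratio gave log2 ratios of -2.88 for Trpc1, -3.52 for Cacna2d3, -1.88 for Kcnab1, 3.51 for Kcnt2, 1.47 for Kcnip3 and 1.45 for Kcnk5, and an offset of 0 gave -1.97 for Trpc1, -1.82 for Cacna2d3 and 1.41 for Kcnt2. Family medians moved too. At an offset of 0 they were -0.19 for calcium auxiliary, -0.16 for ClC, -0.26 for potassium accessory, -0.76 for calcium-activated and -0.54 for voltage-gated potassium genes. By the software's ratio they were -0.18 for ClC, -0.62 for accessory, -1.04 for calcium-activated, -0.55 for inward rectifier and -0.59 for voltage-gated genes. With both dyes required above background they were -0.14 for ClC, -0.18 for accessory, -1.004 for calcium-activated, -0.49 for inward rectifier, -0.79 for voltage-gated and 0.41 for release channel genes. Without background subtraction they were -0.14 for accessory and -0.66 for calcium-activated genes, and without a filter 0.0024 for calcium-activated and 0.016 for voltage-gated genes. With the mean of a gene's probes they were -0.27 for sodium alpha and 0.082 for release channel genes. With 1 array left out they ran between -0.13 and -0.088 for accessory genes and between -0.085 and 0.0201 for tandem-pore genes. The filter settings changed which genes entered a median. With both dyes required, the calcium-activated, inward rectifier and voltage-gated medians rested on 2 genes each. Those of accessory and release channel genes rested on 3 each. The cause of the other shifts was not tested. The test of the ratio within each array against 0 is itself paired by array. No paired analysis was possible beyond it, because each array gives 1 ratio and leaves no replicate block to add.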
